A study of Mus musculus with 2 samples.

Results

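The early complement genes examined here were the 8 genes C1qa, C1qb, C1qc, C3, C3ar1, C5ar1, Cfb and Cfp, taken by symbol from the 31053 genes of the deposited gene list. Each was found once. The study compared live CD45+ cells sorted from B16 melanoma tumours of 2 genotypes by droplet single-cell RNA sequencing, with 1 library per genotype that pooled the cells of several mice. The WT mice carried Mettl3 fl/fl with both Lyz2 alleles intact, and the KO mice carried Mettl3 fl/fl with 1 Lyz2 allele replaced by Cre, so the floxed Mettl3 alleles were shared and the deletion was driven from Lyz2, which is active across the myeloid lineage. Mice of both groups were 8 weeks old. Mettl3 encodes the catalytic subunit of the m6A RNA methyltransferase.

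Complement is a cascade of plasma proteins that marks particles for uptake and recruits leukocytes. The recognition protein C1q is built from 3 chains, encoded by C1qa, C1qb and C1qc, and is made largely by tissue macrophages rather than by the liver. C3 is the component on which all activation routes converge, factor B (Cfb) and properdin (Cfp) build and stabilise the alternative pathway convertase, and C3ar1 and C5ar1 are the receptors for the released fragments C3a and C5a.

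Values are raw UMI counts (1 UMI stands for 1 captured transcript) summed over the cells of a class and divided by all UMIs of that class, as counts per 1000000 UMIs (CPM). The 3′ tag of a transcript is counted once whatever its length, so levels can be set beside each other between genes. Because each genotype was a single library, no test was possible, and brackets give exact 95% intervals that cover counting error only; a difference is one between 2 libraries, and genotype, mice and library cannot be told apart. The WT-labelled library held 5895 barcodes and the KO-labelled library 8446, of which 5405 and 7625 were kept, with medians of 4137 and 3563 UMIs per cell. The libraries shared 13 barcode sequences. Cells were put into 14 classes by marker genes that include no complement gene, and 12 classes had at least 50 cells in both libraries. Of the kept cells, 17.6% and 20.6% were unassigned and 3.85% and 2.41% carried markers of more than 1 lineage. Mettl3 stood at 9.48 CPM in macrophages of the WT-labelled library and 11.2 in the KO-labelled library, from 162 and 167 UMIs (log2 ratio 0.25, interval -0.07 to 0.57). The deleted exons are not given in the sources used here, and a 3′ tag outside them checks nothing. Lyz2, the Cre host gene, stood at 6060 and 2790 CPM in macrophages (log2 ratio -1.12).

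The 3 C1q genes lie in tandem on the minus strand of chromosome 4 (GRCm38, GENCODE M21), C1qb at chr4:136880129-136886187, C1qc at chr4:136889804-136893065 and C1qa at chr4:136895917-136898803. All 8 genes are protein-coding. RefSeq promoter windows on GRCm38.p6 were held for 6 of the 8, and not for C1qa and Cfb. The 250 bases before the start of C1qb, C3 and C3ar1 are shown because these genes carry the differences between classes and libraries described below; capitals mark motif matches on either strand.
C1qb (chr4:136886201-136886450, minus strand): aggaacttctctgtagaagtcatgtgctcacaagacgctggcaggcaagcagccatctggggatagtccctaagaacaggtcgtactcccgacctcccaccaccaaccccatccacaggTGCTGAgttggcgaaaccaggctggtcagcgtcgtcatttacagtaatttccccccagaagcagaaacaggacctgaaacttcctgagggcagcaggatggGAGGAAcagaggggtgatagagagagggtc
C3 (chr17:57228137-57228386, minus strand): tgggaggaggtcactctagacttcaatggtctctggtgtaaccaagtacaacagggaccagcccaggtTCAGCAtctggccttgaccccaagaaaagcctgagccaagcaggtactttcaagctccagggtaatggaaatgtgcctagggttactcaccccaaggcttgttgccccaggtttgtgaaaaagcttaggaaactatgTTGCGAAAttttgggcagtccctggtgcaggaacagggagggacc
C3ar1 (chr6:122856158-122856407, minus strand): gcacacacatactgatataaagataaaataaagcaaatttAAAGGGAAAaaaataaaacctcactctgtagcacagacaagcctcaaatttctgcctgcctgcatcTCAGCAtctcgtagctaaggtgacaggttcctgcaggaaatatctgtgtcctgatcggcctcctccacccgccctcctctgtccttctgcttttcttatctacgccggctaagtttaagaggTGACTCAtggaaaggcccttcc
The letters searched, on both strands, were GAGGAAG and its shorter form GAGGAA (ETS factors of the PU.1 type), TGCTGA (a MAF core site), TGACTCA and its looser form TGANTCA (AP-1), TTGCNNAA (C/EBP), TTTCNNTTT (the core of an interferon response element), GGGNNTTCC (NF-kB type) and CACGTG (an E-box). C1qb held the MAF core site and GAGGAA, and C1qc held GAGGAA and GAGGAAG. C3 held the MAF core site and the C/EBP letters. C3ar1 held the interferon response core, the MAF core site and TGACTCA. C5ar1 held the MAF core site, and Cfp held none of these letters. Of 32851 windows of this length, 23.3% held GAGGAA, 10.6% GAGGAAG, 16.1% the MAF core site, 4.46% TGACTCA, 6.75% TGANTCA, 9.56% the C/EBP letters, 9.37% the interferon response core, 4.98% the NF-kB letters and 6.02% the E-box. GAGGAAG contains GAGGAA, and TGACTCA is a case of TGANTCA. A match is a description of letters and was not tied to binding of any factor.

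The C1q genes were the most abundant members and were concentrated in macrophages. Summed over the 3 chains, C1q stood at 8929 CPM (8884 to 8974) in the 1474 macrophages of the WT-labelled library and 9246 (9197 to 9295) in the 1633 macrophages of the KO-labelled library. Nonclassical monocytes followed at 2551 (2422 to 2684) and 1664 (1589 to 1742). Classical monocytes, the inflammatory cells that enter tumours from blood, stood at 1106 and 1209, and granulocytes at 1026 and 1206, with overlapping counting intervals in both libraries. cDC2 stood at 814 and 890 and cDC1 at 646 and 1122. T cells, which should lack C1q, carried 239 and 243, NK cells 163 and 189, B cells 162 and 128 and melanoma cells 56.2 and 44.8. The macrophage level was above all other classes in both libraries, by 1.81 and 2.47 on the log2 scale over nonclassical monocytes and by 3.01 and 2.93 over classical monocytes, the latter 1.88 and 2.002 with classes taken from clusters.

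**Figure D1:**
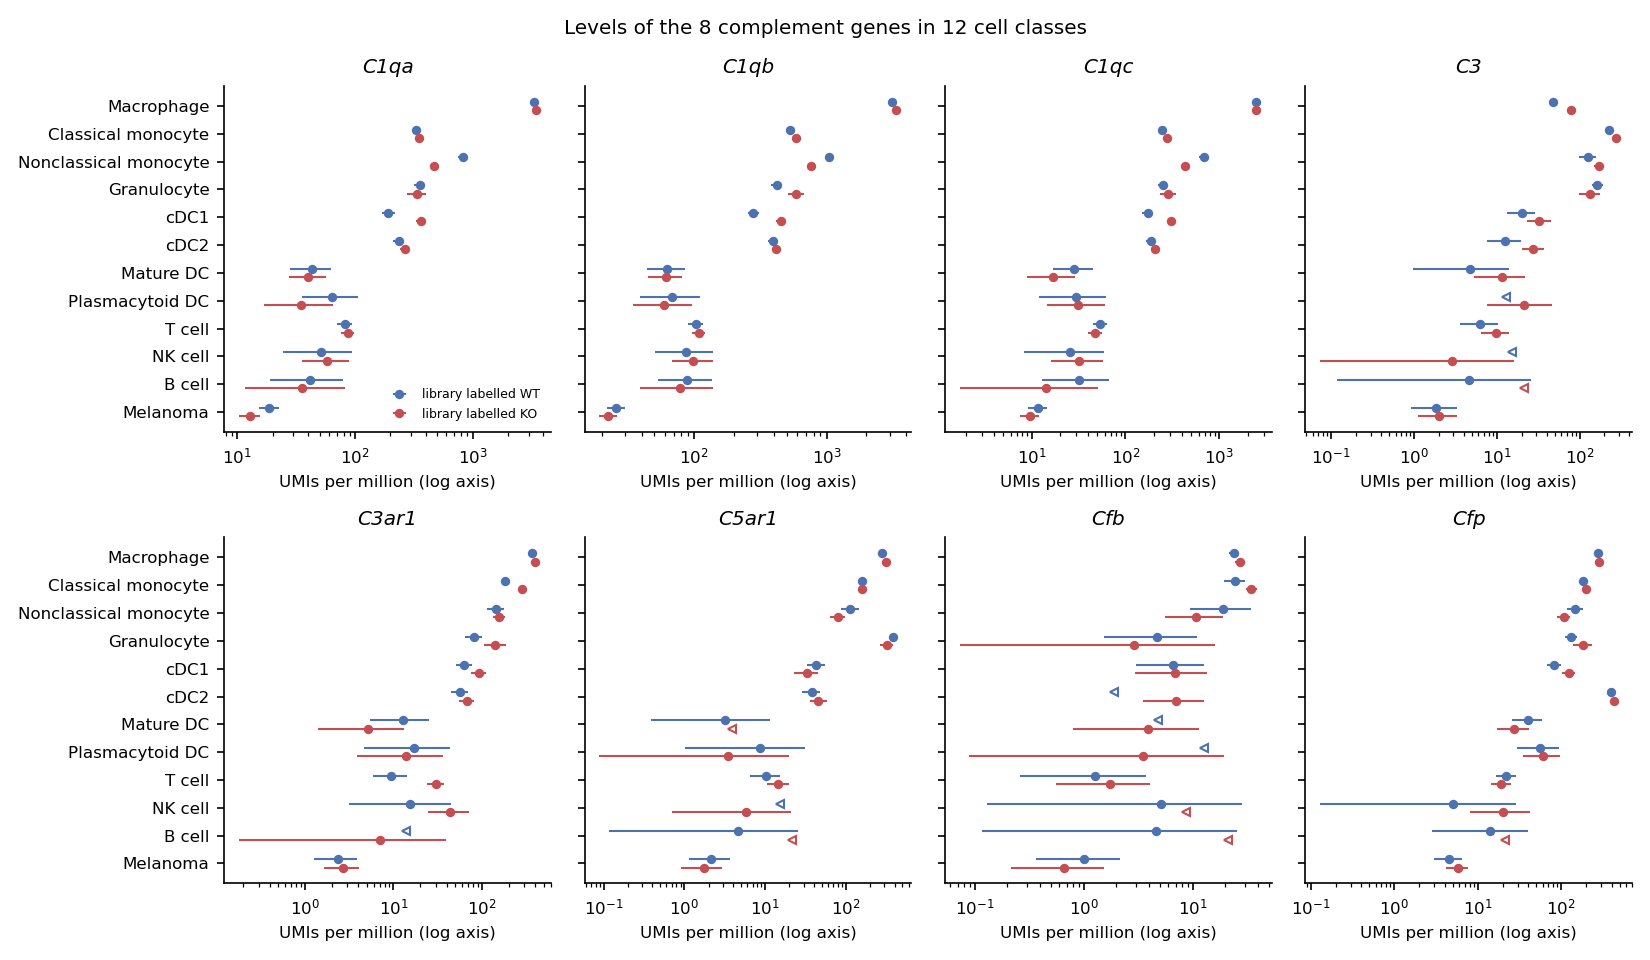
Levels of the 8 genes in the 12 classes with at least 50 cells in both libraries, as CPM on a log axis; points are the libraries labelled WT (blue) and KO (red), bars are exact 95% counting intervals, and open triangles mark the level of 3 UMIs where no UMI was counted. The C1q genes are highest in macrophages, C3 in classical monocytes, C5ar1 in granulocytes and Cfp in cDC2.

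Shares of cells with a UMI did not follow the class levels throughout. A C1q UMI was found in 94.7% (93.4 to 95.8) of macrophages of the WT-labelled library and 92.5% (91.1 to 93.7) of the KO-labelled library, against 40.1% and 36.2% of T cells, at median depths of 9646 and 7347 UMIs in macrophages and 2322 and 1891 in T cells. After thinning every cell to 1000 UMIs, which left out 79 and 96 macrophages and 30 and 75 T cells, the shares were 90.9% and 88.5% in macrophages and 19.1% and 18.6% in T cells. Classical monocytes stood at 30.9% (27.4 to 34.5) and 30.7% (28.7 to 32.8), nonclassical monocytes at 26.9% (19.2 to 35.8) and 21.9% (17.3 to 27.0), and cDC1 at 14.9% (8.93 to 22.8) and 25.7% (17.8 to 34.9). Nonclassical monocytes, above classical monocytes by level in both libraries, were below them by share in the KO-labelled library, while in the WT-labelled library the intervals of the shares overlapped. The T cell share was taken as the background; 1 T cell of the WT-labelled library held 172 of the 564 C1q UMIs of its class. All 3 chains were seen together in 65.9% (63.4 to 68.4) and 63.9% (61.4 to 66.3) of thinned macrophages, in 5.51% (3.93 to 7.48) and 5.42% (4.45 to 6.52) of thinned classical monocytes and in 0.39% (0.05 to 1.39) and 0.68% (0.19 to 1.74) of thinned T cells. The shares of macrophages and classical monocytes with all 3 chains lay above the T cell interval in both libraries. The median macrophage carried 79.9 and 82.8 C1q UMIs per 10000, and the median classical monocyte 1.75 and 1.18.

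The chains did not keep one ratio across classes. In macrophages C1qa made up 37.2% and 37.2% of C1q UMIs, C1qb 35.0% and 36.2%, and C1qc 27.8% and 26.6%. In classical monocytes C1qb led with 48.0% (46.4 to 49.5) and 48.4% (47.4 to 49.3), against 29.6% and 29.0% for C1qa and 22.4% and 22.7% for C1qc. In T, B and NK cells together C1qb also led, with 44.2% (40.3 to 48.2) and 45.7% (42.1 to 49.2), and C1qa held 33.8% and 35.2%. Without the 1 cell with the most C1q UMIs in each library the lymphocyte C1qb share was 49.5% (44.8 to 54.1) and 46.8% (43.1 to 50.5) and the C1qa share 30.5% and 33.9%. In these lymphocytes, which should lack C1q, the C1qb share was above that of macrophages. The part of free RNA in the monocyte values was not tested.

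To order the cells by their markers, cells of the macrophage and monocyte classes were put into 5 bins of the macrophage marker score minus the monocyte marker score. C1q was higher in each next bin in both libraries. In the WT-labelled library it stood at 619, 1158, 3312, 7340 and 10978 CPM from the first to the last bin, and in the KO-labelled library at 587, 1350, 3943, 8215 and 12098. Within bins the log2 ratio of the KO-labelled library over the WT-labelled library was -0.08 (-0.20 to 0.04) in the first, 0.22 in the second, 0.25 in the third, 0.16 in the fourth and 0.14 in the last. The bins are ranges of a score and not cell types. Cells whose best score led by less than 0.1 had no class, so those with near-equal macrophage and monocyte scores were left out. The macrophage class made up 60.2% of the third bin in the WT-labelled library and 47.7% in the KO-labelled library. The part of this mix of classes in the bin values was not tested. The C1qb share was lower in the last bin than in the first, going from 45.8% (42.3 to 49.3) to 34.0% (33.7 to 34.3) in the WT-labelled library and from 52.6% (50.4 to 54.8) to 34.7% (34.3 to 35.0) in the KO-labelled library. Over the same bins the C1qa share went from 33.3% to 37.7% and from 25.4% to 38.2%.

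**Figure D2:**
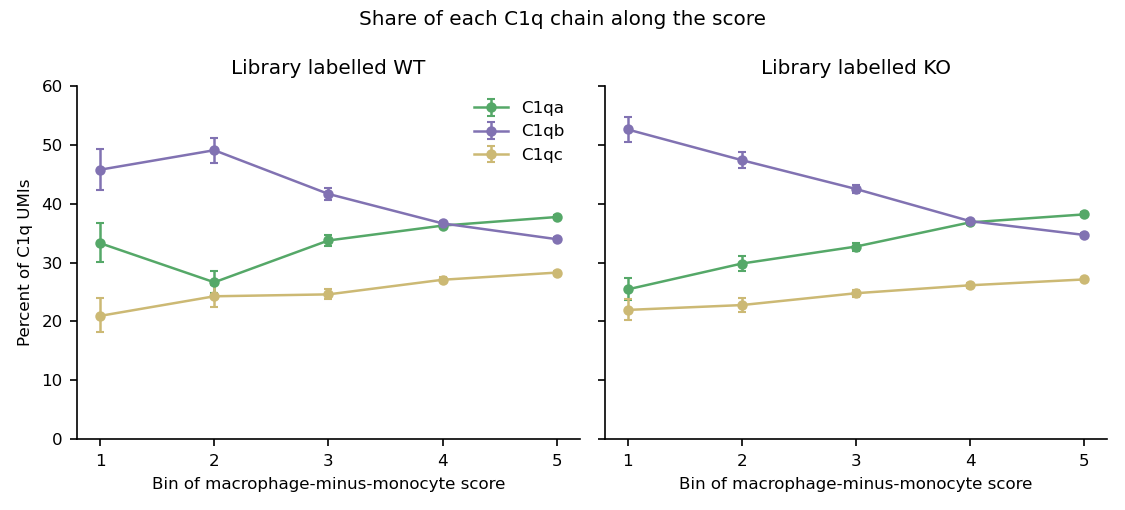
Percent of C1q UMIs that came from each chain (y axis) in 5 bins of the macrophage-minus-monocyte score (x axis), 1 panel per library, with exact 95% binomial intervals. In both libraries C1qb is the leading chain in the first 3 bins and C1qa in the last.

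Over these 5 bins C3 ran the other way. In the WT-labelled library it stood at 314, 183, 105, 48.4 and 37.2 CPM from the first to the last bin, and in the KO-labelled library at 368, 220, 132, 71.7 and 71.2. Over 10 bins C3 was lowest in the last bin of the WT-labelled library, at 33.5, but in the KO-labelled library it stood at 54.1 (46.6 to 62.4) in bin 9 and 93.6 (82.3 to 106) in bin 10. By class it was highest, among classes of at least 50 cells, in classical monocytes at 225 (794 UMIs) and 273 (2320 UMIs). Granulocytes at 164 and 133 and nonclassical monocytes at 127 and 173 came next. Their order was opposite in the 2 libraries, and their intervals overlapped in both. Macrophages stood at 47.2 (807 UMIs) and 79.3 (1178 UMIs). A few fibroblasts, 9 and 13 cells that passed a CD45 sort, carried 2246 and 2906 CPM. T cells stood at 6.36 and 9.69.

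**Figure D3:**
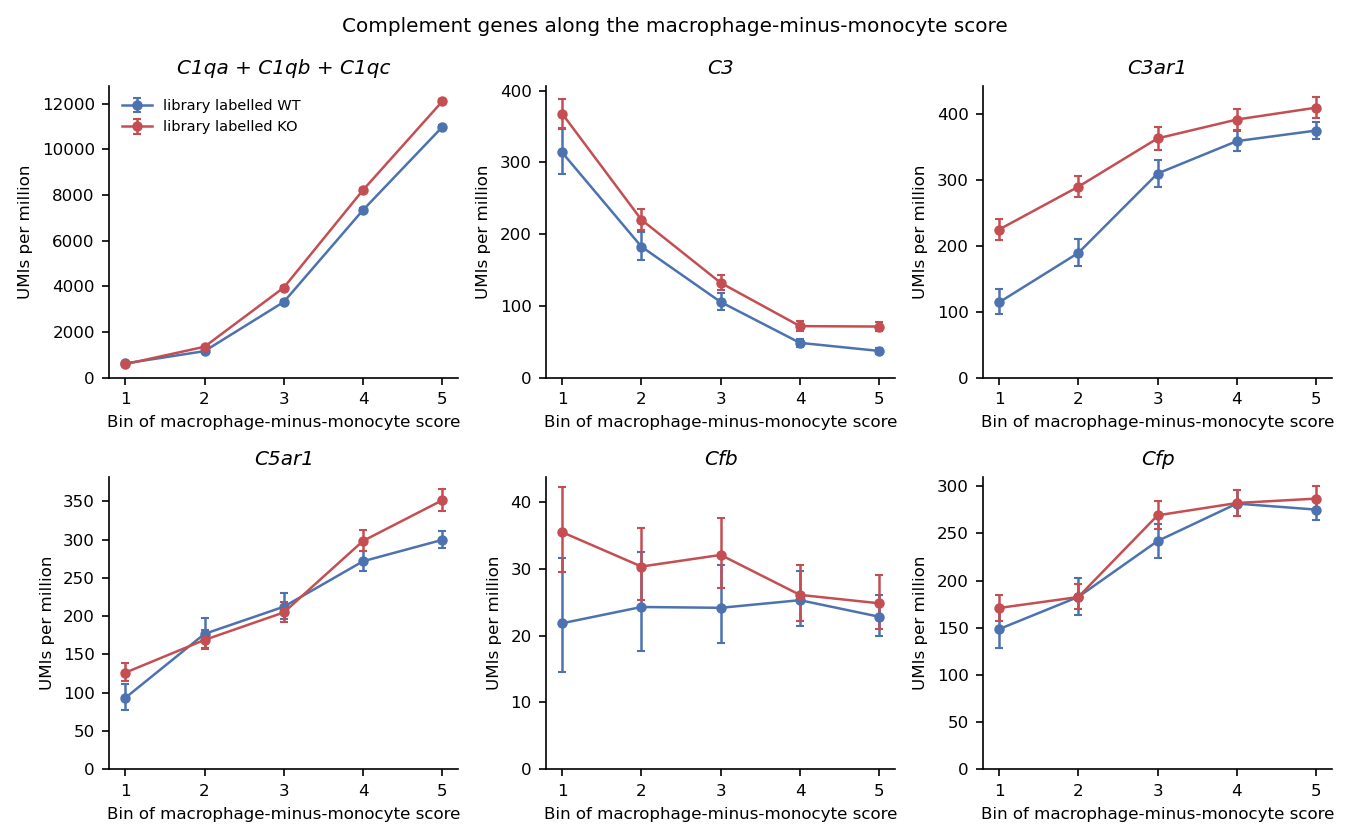
Level in CPM (y axis, from 0) in 5 bins of the macrophage-minus-monocyte score (x axis) for summed C1q and the other 5 genes, in the libraries labelled WT (blue) and KO (red), with exact 95% counting intervals. C1q, C3ar1, C5ar1 and Cfp are higher in the last bin than in the first, and C3 is lower.

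The receptors followed the phagocytes. C3ar1 stood at 366 and 400 CPM in macrophages, 184 and 286 in classical monocytes, 144 and 155 in nonclassical monocytes and 80.9 and 141 in granulocytes. Along the bins it went from 114 to 375 in the WT-labelled library and from 225 to 410 in the KO-labelled library. C5ar1 was highest in granulocytes at 384 and 320, followed by macrophages at 282 and 311 and classical monocytes at 157 in both libraries; the intervals of granulocytes and macrophages overlapped in the KO-labelled library. T cells carried 9.32 and 30.1 of C3ar1 and 10.2 and 14.5 of C5ar1.

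The alternative pathway genes were highest in different classes. Cfp was highest in cDC2, a class of conventional dendritic cells, at 397 and 433 CPM, ahead of macrophages at 276 and 286 and classical monocytes at 180 and 200. Cfb was the scarcest member, at 23.8 and 27.2 in macrophages and 24.4 and 34.6 in classical monocytes. It stood at 190 in the few fibroblasts of either library, from 28 and 26 UMIs. In granulocytes it rested on 5 UMIs in the WT-labelled library and 1 in the KO-labelled library.

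In macrophages C3 was the member past 1.5-fold between the libraries, and the other members differed by less. The log2 ratio of the KO-labelled library over the WT-labelled library was 0.05 (0.04 to 0.06) for summed C1q, at percentile 59.6 of the 5682 genes that reached 20 CPM, and its sign turned to -0.11 when classes were taken from Leiden clusters. Within tertiles of the MHC class II score it was -0.14 (-0.16 to -0.12), 0.07 (0.05 to 0.09) and 0.12 (0.10 to 0.14) from the lowest to the highest, and within tertiles of the dissociation stress score -0.03 (-0.05 to -0.01), 0.05 (0.03 to 0.06) and 0.16 (0.14 to 0.18), so its direction was not the same in all tertiles. By chain it was 0.05 (0.04 to 0.07) for C1qa, 0.10 (0.08 to 0.11) for C1qb and -0.02 (-0.04 to 0.00) for C1qc. With cluster classes C1qa turned to -0.11 and C1qb to -0.05, and C1qc turned to 0.15 with equal weight per score bin and 0.08 without the last of 10 bins. For C3 it was 0.75 (0.62 to 0.88), a 1.68-fold higher level at percentile 99.6. Without the macrophages in the last of 10 bins of the score, an alternative chosen after seeing the data, it was 0.54, and 0 members were past 1.5-fold. The ratio was 0.13 (0.08 to 0.18) for C3ar1 and 0.14 (0.08 to 0.20) for C5ar1, the latter 0.06 with thinned cells and 0.07 with equal weight per cell. It was 0.19 (-0.01 to 0.39) for Cfb and 0.05 (-0.01 to 0.11) for Cfp. Over the processing alternatives it ran from 0.05 to 0.21 for Cfb and from -0.04 to 0.06 for Cfp. Of the 8 members, all past the minimum level, 1 was higher by 1.5-fold or more, beside 0.986% of all genes, and 0 were lower, beside 0.37%. The median over the members was 0.11, and over all genes 0.01. Outside macrophages the C3 ratio was 1.14 (0.34 to 1.98) in cDC2, from 20 and 43 UMIs, and 0.71 (-0.04 to 1.47) in cDC1. It was 0.45 (0.06 to 0.86) in nonclassical monocytes, 0.28 (0.16 to 0.40) in classical monocytes and -0.30 (-0.80 to 0.17) in granulocytes.

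Over the 5 score bins, which hold macrophages and monocytes, C3 was higher in the KO-labelled library by 0.23, 0.27, 0.33, 0.57 and 0.94 on the log2 scale from the first to the last. Over 10 bins the log2 ratio lay between 0.08 (bin 3) and 0.53 (bins 7 and 8) in bins 1 to 9 and was 1.48 (1.19 to 1.78) in bin 10, which held 370 and 252 cells. The share of macrophages with a C3 UMI after thinning was 5.23% (4.12 to 6.54) and 8.13% (6.81 to 9.61), against 0.58% and 0.68% of T cells. Interferon response genes moved with it: the 12 listed summed to 1247 and 1789 CPM in macrophages and 11 were higher in the KO-labelled library. Within tertiles of that list's score the C3 log2 ratio was 0.30 (0.00 to 0.60), 0.64 and 0.80 from the lowest to the highest tertile. MHC class II genes also moved, at 11196 and 13215 with 5 of 5 higher, and the C3 ratio within their tertiles was 0.94, 0.74 and 0.55. Monocyte markers in the macrophage class summed to 836 and 1004 CPM with 6 of 8 higher, and macrophage markers to 8459 and 7497 with 1 of 10 higher. Granulocyte markers summed to 819 and 257 with 0 of 8 higher, and 51 and 12 macrophages lay in clusters named granulocyte. Without those cells the C3 ratio was 0.81 and the C1q ratio 0.04. Among scarcer lists, T cell markers summed to 80.7 and 63.0 with 1 of 9 higher, and mast cell or basophil markers to 0.29 and 5.46 with 7 of 7 higher. The part of these lists in the C3 difference was otherwise not tested.

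In classical monocytes C3ar1 was the member that differed most. It was higher in the KO-labelled library by 0.64 (0.51 to 0.77) on the log2 scale, 1.56-fold, at percentile 97.7 of 5628 genes. The ratio was 0.51 (0.16 to 0.87) for Cfb, which turned to -0.03 with equal weight per interferon tertile and was -0.54 (-0.99 to -0.07) in the highest of these tertiles. It was 0.28 (0.16 to 0.40) for C3, 0.15 for Cfp, 0.13 (0.08 to 0.18) for summed C1q and 0.00 (-0.14 to 0.15) for C5ar1. The C1q ratio turned to -0.23 with cluster classes, -0.08 with thinned cells and -0.02 with equal weight per cell. Of 8 members, 1 was past 1.5-fold upward, beside 3% of all genes, and 0 downward, beside 1.46%. The median was 0.15 over the members and -0.01 over all genes. C3ar1 was seen in 14.2% (11.7 to 17.0) and 20.4% (18.6 to 22.2) of thinned classical monocytes, against 1.35% and 1.88% of T cells. In T cells the C3ar1 level itself was higher in the KO-labelled library by 1.69 (1.003 to 2.44) on the log2 scale, from 22 and 87 UMIs. These UMIs lay in 15 and 35 cells, and 1 cell held 6 and 17 of them.

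The interferon list stood at 2471 and 4368 CPM in classical monocytes, with 12 of 12 higher in the KO-labelled library. Within its tertiles the C3ar1 ratio was 0.19 (-0.06 to 0.44), 0.50 (0.28 to 0.73) and 0.43 (0.22 to 0.65), and with equal weight for each tertile it was 0.40, under 1.5-fold. The level of C3ar1 itself went from 146 to 281 CPM from the lowest to the highest tertile in the WT-labelled library and from 166 to 379 in the KO-labelled library. MHC class II genes stood at 11824 and 10941 CPM here with 0 of 5 higher, and the C3ar1 ratio within their tertiles was 1.02 (0.67 to 1.39), 1.01 (0.78 to 1.26) and 0.28 (0.11 to 0.45). Dissociation stress genes stood at 3476 and 3080 with 2 of 10 higher, and within their tertiles it was 0.44 (0.21 to 0.69), 0.54 (0.33 to 0.76) and 0.86 (0.64 to 1.07). The ratio was above 0 in each of the 9 tertiles, with an interval that reached below 0 in the lowest interferon tertile. Granulocyte markers were lower here too, at 947 and 459. T cell markers stood at 26.9 and 39.0 with 8 of 9 higher, and plasmacytoid dendritic cell markers at 563 and 843 with 3 of 8 higher. The part of these lists in the C3ar1 difference was otherwise not tested. With cluster classes the C3ar1 ratio was 0.35, so that no member was past 1.5-fold.

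In granulocytes 7 members reached the minimum level. C3ar1, from 86 and 49 UMIs, was 1 of 7 past 1.5-fold upward (log2 ratio 0.81, 0.27 to 1.33; 0.34 with cluster classes, under 1.5-fold, and 1.998 with thinned cells), beside 18.2% of all genes, and 0 were past it downward, beside 9.38%. The median was 0.19 over the members and 0.13 over all genes, and trimmed-mean (TMM) scaling moved every ratio in this class by -0.15. With 238 cells at a median of 1062 UMIs in the KO-labelled library, the intervals of the other members were wide. In that library 1 granulocyte held 31.9% of the C1qa UMIs, 22.2% of the C1qb UMIs and 24.9% of the summed C1q UMIs of the class. The intervals do not cover such weight of single cells. The ratio was 0.48 (0.23 to 0.72) for C1qb, 0.46 (0.01 to 0.90) for Cfp, 0.19 (-0.16 to 0.53) for C1qc, -0.09 (-0.40 to 0.22) for C1qa, -0.26 (-0.58 to 0.04) for C5ar1 and -0.30 (-0.80 to 0.17) for C3. Summed C1q stood at 0.23 (0.07 to 0.40) and turned to -0.10 with cluster classes, where C1qb was 0.11 and Cfp 0.13. Over the processing alternatives the ratio ran from -0.10 to 0.60 for summed C1q, -0.24 to 0.71 for C1qa and -0.29 to 0.59 for C1qc. It ran from -0.69 to 0.30 for C3, and stayed above 0 for C1qb, C3ar1 and Cfp and below 0 for C5ar1.

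**Figure D4:**
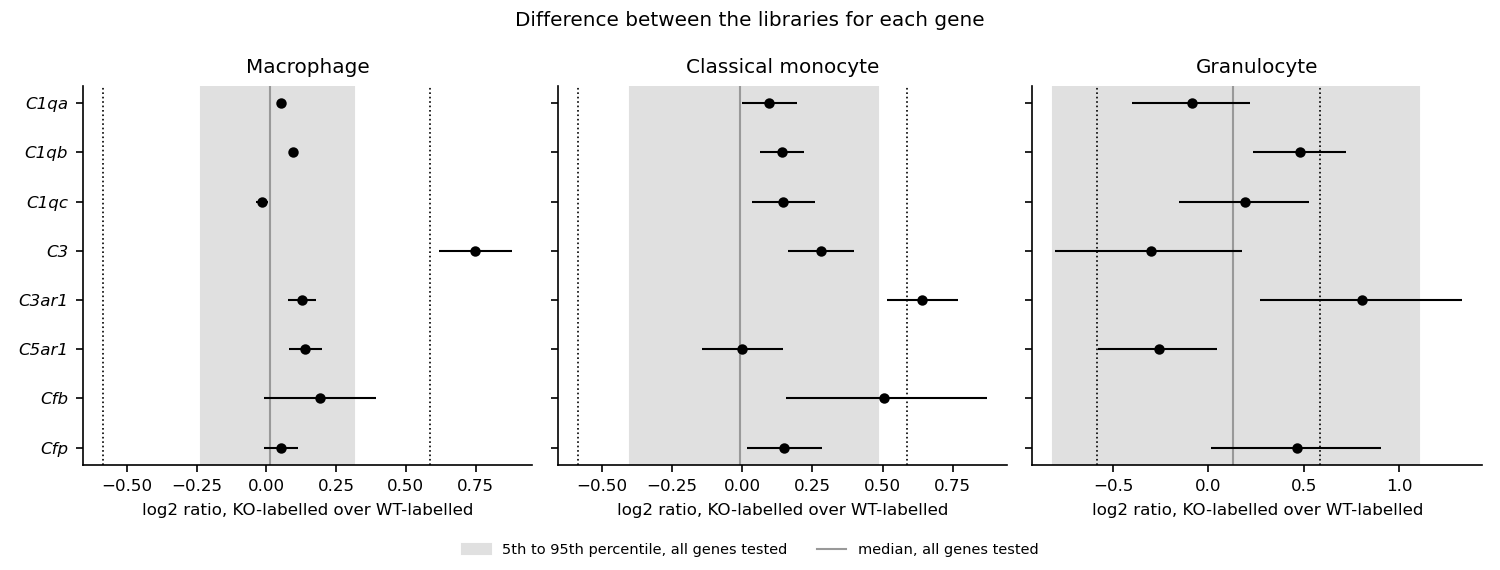
Log2 ratio of the KO-labelled library over the WT-labelled library (x axis) for each member past 20 CPM, in 3 classes, with exact 95% counting intervals; the grey band spans the 5th to 95th percentile of all genes tested, the grey line is their median and dotted lines mark 1.5-fold. C3 in macrophages and C3ar1 in classical monocytes lie to the right of the band and of the dotted line.

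Other genes of the cascade, its receptors and its inhibitors were read from a list. Of 49 listed genes, 48 were in the gene list and 11 reached 20 CPM in at least 1 of the 3 phagocyte classes. In macrophages 10 passed and 0 were past 1.5-fold in either direction, beside 0.986% of all genes upward and 0.37% downward. Their median log2 ratio was -0.02, and that of all genes 0.01. In classical monocytes 11 passed and 0 were past the fold downward, beside 1.46% of all genes. Upward, beside 3% of all genes, 1 was past it. This was Itgax, a chain of complement receptor 4, at 43.3 and 71.2 CPM (0.72, 0.46 to 0.98). Its partner Itgb2 stood at 412 and 454 there, and Itgam, the chain it pairs with in complement receptor 3, at 477 and 466. In granulocytes 9 passed and 0 were past the fold in either direction, beside 18.2% of all genes upward and 9.38% downward. C4b, a component of the classical pathway, stood at 77.8 and 77.7 in macrophages. Cd93 stood at 308 and 281, Calr at 762 and 747, Lrp1 at 470 and 442, C1qbp at 110 and 127 and Cr1l at 37.1 and 43.2 in macrophages. Lrp1 stood at 520 and 459 in classical monocytes and Cr1l at 47.1 and 40.4 in granulocytes. C5ar2, a second C5a receptor, stood at 63.1 and 60.6 in granulocytes, from 67 and 21 UMIs, and at 20.1 and 16.7 in classical monocytes. The proteases C1ra and C1s1, which complete the C1 complex with C1q, stood in the few fibroblasts at 428 and 337 and at 563 and 651 CPM.

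Across 24 points, the 12 classes in each library, the genes whose log2 level tracked summed C1q most closely among 6490 genes were Trem2 (Pearson r = 0.96), Msr1 (0.94) and Fcgr4 (0.93). Trem2 is one of the macrophage markers of the classes. For C3 they were Pla2g7 (0.96), Mefv (0.95) and Sirpb1c (0.94), for C3ar1 Fcgr4 (0.94) and Msr1 (0.93), and for C5ar1 Clec5a (0.94), Ccr1 (0.94) and Slc11a1 (0.93). For Cfp they were Clec4n (0.94), Lrrc25 (0.92) and Cd300a (0.92), and for Cfb, with few UMIs, Cndp2 (0.86), Rab5c (0.82) and Msr1 (0.82). The points share libraries and depth, and no p-value is given.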

How the data were processed

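Live CD45+ cells from B16 tumours were profiled with 10x 3′ v3 chemistry. The authors deposited raw UMI counts of both libraries in 1 matrix, made with Cell Ranger 4.0.0 (version from the file header) against mm10, with a table that names the library of each barcode. Cells with at least 200 genes and at most 10% mitochondrial UMIs were kept. Scrublet's own threshold called 1 cell in each library and had not worked, so the 256 and 532 highest scores, at the expected rate of 0.8% per 1000 cells, were removed.

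Each cell was scored by the mean of its marker genes, each scaled to its highest Leiden cluster (floor 0.5). It took the class of the best score if that was at least 0.35 and led by 0.1, and cells with 2 lineages were set aside. This scaling replaced scores divided by their standard deviation, which had favoured rare classes, after the first class calls were seen. The members and gene lists were chosen with earlier results of these data known. Members were named in all classes with at least 50 cells in both libraries, other complement genes at 20 CPM (counts per 1000000 UMIs) or more, up to 12, and like genes as the 3 with the highest correlation of log2(CPM + 1). Results for 2 genes that these rules name are not reported here.

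UMIs were summed per class and library. With 1 library per genotype no test was run; Poisson, Clopper-Pearson and conditional binomial 95% intervals cover counting error only. A gene was counted as past the fold at 1.5-fold. The ratio code was checked on simulated counts. Motif letters came from 2 sets: one had been planned and the other was the first to be searched, and all letters of both are reported. Alternatives used Leiden clusters (leidenalg 0.10.2, scanpy 1.11.5) and edgeR 4.0.16 TMM factors. Equal weight per interferon tertile and the removal of granulocyte-cluster cells or of the last of 10 score bins were chosen after seeing the data.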

Additional observations from a re-analysis of the deposited data

Results flagged for a closer look

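Some members moved in opposite directions between the libraries in 2 classes, with counting intervals on either side of 0; the difference between classes was not tested. Summed C1q had a log2 ratio of the library labelled KO over the library labelled WT of 0.80 in cDC1 and -0.62 in nonclassical monocytes. By chain the values in cDC1 and nonclassical monocytes were 0.92 and -0.80 for C1qa, 0.68 and -0.47 for C1qb and 0.83 and -0.65 for C1qc. Single cells weighed heavily here, since 1 cell held 21.9% and 17.6% of the C1q UMIs of nonclassical monocytes and 15.6% and 19.0% of those of cDC1. Cfp had 0.59 in cDC1 and -0.46 in nonclassical monocytes, and C5ar1 0.14 in macrophages (0.06 with thinned cells) and -0.50 in nonclassical monocytes. Cells that were given no class by the marker genes, which were left out of the comparisons except where classes were taken from clusters, carried 2789 and 2628 CPM of C1q in the libraries labelled WT and KO.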

How the results depend on the processing

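No paired analysis was possible because each genotype was 1 library. Values are log2 ratios, the library labelled KO over the library labelled WT unless macrophages are set over monocytes, and in pairs WT then KO. C3 in macrophages lay between 0.61 (equal weight per score bin) and 1.01 (cluster classes), past 1.5-fold, except without the last of 10 score bins, where it was 0.54 and 0 members were past the fold. That alternative, chosen after seeing the data, gave 0.125 for C1q in macrophages, 2.80 and 2.80 for C1q in macrophages over classical monocytes and -2.10 (WT) for C3. C1q in macrophages was 0.0717 with the wider margin, 0.0665 with equal weight per cell, 0.0283 with TMM factors, 0.20 with equal weight per score bin, 0.0610 with equal weight per interferon tertile and 0.0387 without granulocyte-cluster cells. Cluster classes gave -0.11 for C1q, -0.11 for C1qa and -0.0469 for C1qb in macrophages and -0.10 for C1q in granulocytes. In classical monocytes they gave -0.23 for C1q, -0.15 for C1qb, -0.27 for C1qc, -0.0384 for Cfp and 0.35 for C3ar1, with 0 members past the fold. In classical monocytes equal weight per interferon tertile gave 0.40 for C3ar1 with 0 members past the fold, -0.11 for C1q, -0.13 for C1qb, -0.0666 for C1qc and -0.0253 for Cfb. Thinned cells gave -0.0784 for C1q and -0.13 for C1qb, and equal weight per cell -0.0229 for C1q and -0.0269 for C1qc. The causes were not tested. C1q in macrophages over classical monocytes was 1.88 and 2.002 with cluster classes, 3.25 and 3.23 with the wider margin, 3.15 and 3.24 with equal weight per cell, 3.13 and 3.26 thinned, 2.88 and 3.05 per interferon tertile, 2.86 (WT) per score bin and 2.83 (KO) with doublets kept. For C3 it was -1.92 and -1.35 with cluster classes, -2.01 and -1.62 thinned, -2.07 (WT) per score bin, and, for KO, -1.91 with the wider margin, -1.58 with equal weight per cell and -1.89 per interferon tertile. Over 10 bins the last exceeded the first by 4.53 and 4.57 for C1q. Thinning lowered the share of macrophages with all 3 chains from 82.6% and 79.7% to 65.9% and 63.9%. With no minimum level 8 other complement genes in macrophages and 7 in classical monocytes were past 1.5-fold, beside 8.79% of all genes upward and 8.61% downward in macrophages and 8.91% and 12.9% in classical monocytes. At the lower fold alternative, 2 members and 2 other complement genes in classical monocytes were past it, beside 10.4% of all genes upward and 8.60% downward, 2 other complement genes in macrophages, beside 4.80% and 1.92%, and 3 members in granulocytes, beside 33.2% upward.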
